A study of Drosophila melanogaster with 4 samples.

Results

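The regions described here are the peaks of the protein CG16778 on the X chromosome of Drosophila melanogaster embryos, found by chromatin immunoprecipitation followed by sequencing (ChIP-seq). They are all peaks that the deposited list places on X in FlyBase release 5 coordinates, 498 of 4164 peaks in the whole list (12.0%). The gene is listed under the symbol lov (jim lovell) in the current gene table. Whole embryos of the Y cn bw sp strain were used, and their sex is given as unknown. Their full genotype carries y[1] and oc[R3.2], then cn[1], bw[1] and sp[1] with Gr22b[1], Gr22d[1] and CG33964[R4.2], and also Rh6[1], GstD5[1], MstProx[1], LysC[1] and lab[R4.2]. The 4 libraries all share this genotype and comprise 2 of ChIP DNA and 2 of input DNA, that is, chromatin taken without immunoprecipitation. The labels give the stage as 0 to 8 h, whereas their protocol text describes eggs laid for a window of 8 to 16 h, so the age is known only as far as these labels go. The antibody was a rabbit polyclonal raised against a stretch of CG16778, and the embryos were collected in bulk, so each preparation pools many embryos.

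Lov is a protein with a BTB/POZ domain, a module through which proteins of this class pair with each other, and many members of the class bind DNA and regulate transcription. In flies the gene takes its common name from a defect in orientation to gravity, and it is also known for roles in larval and adult behaviour. The X chromosome is present in a single copy in males and as a pair in females, and male embryos raise its transcription through a dosage compensation complex that coats much of the chromosome. The first hours of embryogenesis, to which the labelled stage belongs, span nuclear division in a shared cytoplasm, the onset of zygotic transcription, gastrulation and the first steps of tissue formation.

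The list holds one start, one end and one score per peak, and no values for single libraries. Every value below is therefore a property of the list, with no replicate error, unknown read depth and no test between groups of samples. Peaks are not replicates of a condition, and differences between stretches of X or between arms are given as descriptions that were not tested. The genes at these positions were not analysed here.

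Along X, peaks were scattered from base 141221 to base 21883682, a span of 21.7 Mb, and together covered 228 kb or 1.05% of it. Over the 21 full 1-Mb bins, counted by peak centre, counts lay between 3 and 37, and the median bin had 23 peaks. The mean was 23.3 ± 8.83 peaks per Mb (SD over bins). No bin was empty, and after the bin of 3 peaks the next lowest counts were 12, 12 and 14.

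The fullest bin was X 6000001 to 7000000 with 37 peaks, followed by X 11000001 to 12000000 with 36 and X 2000001 to 3000000 with 35. These bins were full in different ways. In the fullest, 59.5% of the peaks belonged to groups of 3 or more peaks joined by gaps of up to 5 kb, and in the third-ranked bin 60.0% did. In the bin from 11000001 only 19.4% did, and its 36 peaks formed 26 separate sites when neighbours were joined, the most of any full bin. Peaks there were thus many and spread out, whereas in the other two they were bunched at 15 and 13 sites.

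At the other end, the bin X 14000001 to 15000000 held 3 peaks, and the bins from 18000001 and from 20000001 held 12 each. The 3 peaks were narrow, with widths of 310, 249 and 230 bp, and their scores were 7.98, 7.98 and 8.99, near the low end of the X list. This bin contains the longest peak-free stretch of X, 815 kb from 14142328 to 14957792. The peaks on either side of the stretch both scored 7.98. In the same direction, the bin just before it held 14 peaks and none of them lay in a group of 3 or more.

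**Figure D1:**
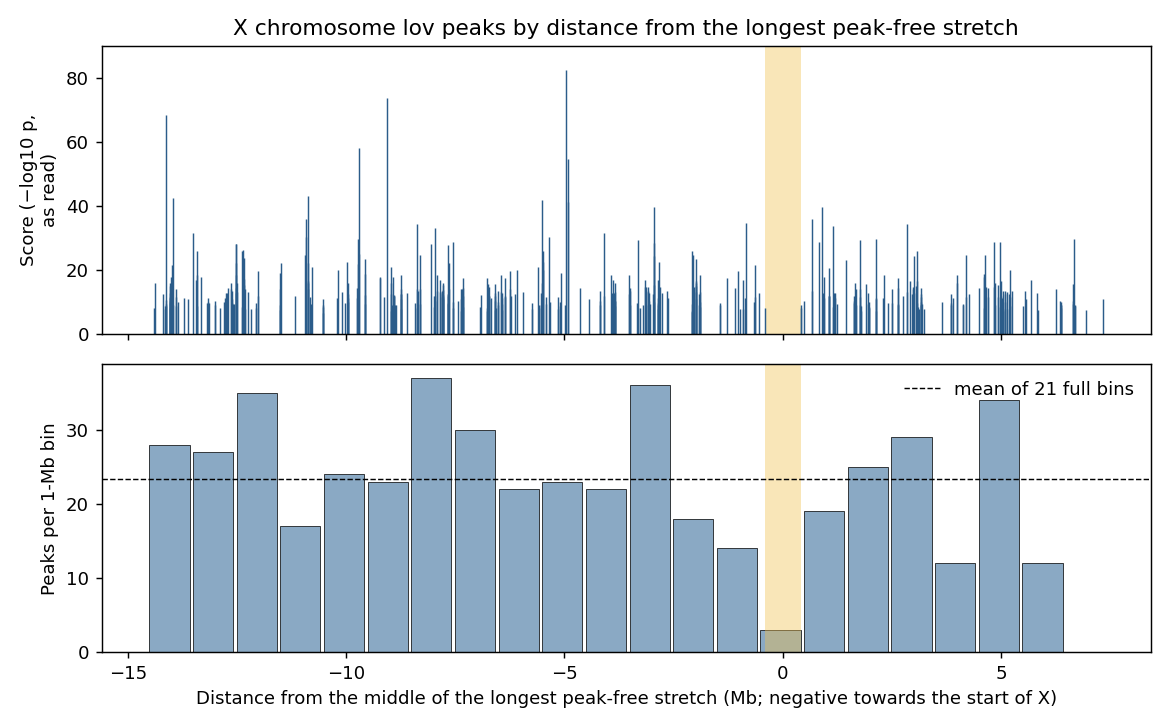
The upper panel shows each of the 498 X peaks as a line at its distance from the middle of the longest peak-free stretch (Mb), with the authors' score as height. The lower panel shows the number of peaks in each of the 21 full 1-Mb bins with their mean of 23.3 as a dashed line. The shaded 815-kb stretch falls in the bin of 3 peaks. The bins of 35, 36 and 37 peaks all lie before it, and the fullest bin after it holds 34.

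In blocks of 7 bins, mean counts were lower towards the end of the sequence, with wide overlap between blocks. The first 7 bins held 191 peaks (27.3 ± 6.95 per bin, range 17 to 37). The middle 7 held 165 (23.6 ± 7.35, range 14 to 36) and the last 7 held 134 (19.1 ± 10.9, range 3 to 34). The share of peaks in groups of 3 or more followed the same order, at 46.1%, 35.2% and 28.4%. With a fixed joining gap this share depends in part on how dense the peaks are, so it is not an independent measure. The median widths were 372, 364 and 342.5 bp and the median scores 12.3, 12.12 and 11.92, while 6.81%, 3.64% and 6.72% of the peaks were wider than 1000 bp.

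Long empty stretches made up most of the chromosome. Of the 497 gaps between neighbouring peaks, 68 were at least 100 kb long, and these added up to 14.3 Mb, or 65.7% of the span. They lay in all parts of X, with 22, 21 and 23 of them starting in the first, middle and last 7 bins. After the 815-kb stretch, the longest were 551 kb from 11922931 to 12474332 and 500 kb from 2529425 to 3028979.

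A gap of 455 kb lay from 12650011 to 13104922, so that the megabase from 12000001 was framed by long gaps on both sides. Its 18 peaks formed 7 sites, and 77.8% of them were in groups of 3 or more, the highest share of any full bin. The next gaps in length were 416 kb from 20395751 to 20811781 and 414 kb from 17780771 to 18194596. Then came 389 kb from 7234104 to 7623058, 382 kb from 21500963 to 21883117, 336 kb from 4978327 to 5314318 and 323 kb from 3057049 to 3379810. The single peak at the far end of the eighth of these gaps is the last peak of X. Most of these gaps were bordered by peaks of low score, as 15 of the 20 bordering peaks scored below the X median of 12.2. The gap from 2529425 was the 1 with both borders above it, scoring 19.62 and 19.16, the latter in a peak 1233 bp wide.

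Between these stretches, peaks lay close to one another. The median distance between neighbouring centres was 9672 bp (quartiles 1352.5 and 46205 bp) against a mean of 43747 bp, so that a typical neighbour was much nearer than an even spacing would place it. Of the 497 pairs, 97 were at most 1 kb apart and 64 more lay between 1 and 2 kb. Only 40 were between 2 and 5 kb and 50 between 5 and 10 kb. Per kb of distance this was 80.5 pairs below 2 kb, 13.3 from 2 to 5 kb and 10.0 from 5 to 10 kb. Close pairs on X were therefore mostly very close pairs, and the smallest gap between peak edges was 44 bp.

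Counted in fixed windows of 100 kb, 74 of 218 windows (33.9%) had no peak, while the fullest 35 windows (16.1%) held 249 of the 498 X peaks. The fullest window, X 500001 to 600000, had 13 peaks in 6 groups or single sites, with a highest score of 42.52. The windows from 2100001 and from 10600001 had 12 each, the one from 6700001 had 10, and the one from 2200001 had 9, as did those from 8100001 and 9000001. The peaks of the window from 6700001 all belonged to 1 group, and those of the adjoining windows from 2100001 and 2200001 to 3 groups or single sites each.

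When peaks with gaps of up to 5 kb were joined, X resolved into 293 sites. Of these, 186 were single peaks (37.3% of the peaks, exact 95% interval 33.1 to 41.8%), 64 were pairs and 43 were groups of 3 or more. The larger groups held 184 peaks (36.9%, interval 32.7 to 41.4%). The intervals are Clopper-Pearson and cover counting error only, with each peak taken as an independent count. Neighbouring peaks enter a group together, so the intervals are too narrow even for that. Most such groups were small, with 16 of 3 peaks, 16 of 4 and 4 of 5. There were 7 groups of 6 or more, holding 52 peaks.

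The largest group comprised 12 peaks in 14.5 kb from 2186817 to 2201312, and peaks covered 30.9% of it. Its peaks were of moderate and similar width, from 206 to 484 bp. A pair of them stood out by score, 26.28 at 2190175 to 2190647 and 23.63 at 2198016 to 2198396, whereas the other 10 scored between 9.34 and 15.77. These leading peaks lay towards opposite ends of the group, 473 and 381 bp wide. A group of 5 followed 10717 bp further on, from 2212030 to 2219439, and its highest score was 17.01.

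The second group, 10 peaks in 15.0 kb from 6749131 to 6764103, had no such leader. Its scores ran from 10.78 to 15.77, its widths from 201 to 542 bp, and 3 of its peaks were at the list's minimum width of 201 bp. It ended at a gap of 110724 bp. Only 21.3% of its length was covered, so it was a chain of mostly narrow peaks, 7 of which scored above the X median of 12.2.

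**Figure D2:**
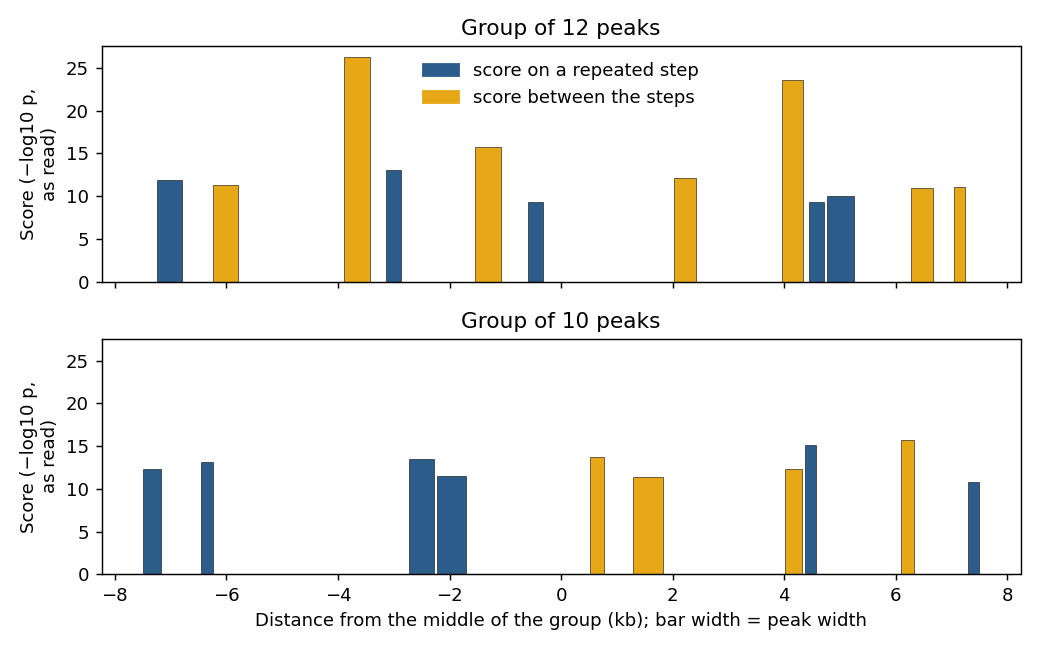
Each bar is a peak of the group of 12 (upper) or the group of 10 (lower), placed by its distance from the middle of the group (kb), as wide as the peak and as high as its score. Scores of 26.28 and 23.63 rise above the rest in the group of 12, whereas the group of 10 stays between 10.78 and 15.77. Blue bars have scores on the repeated steps described in the text and orange bars lie between them.

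The other 5 large groups held 6 peaks each and were more compact, from 4.15 to 6.54 kb. The densest of them, from 5793262 to 5797410, was 58.5% covered by peaks and reached a score of 18.23 at 5794211 to 5794926. The group from 6874828 to 6881062 had the highest score of the 5, 27.72, in a peak of 995 bp at 6879794 to 6880788, and the group from 12553449 to 12559991 reached 23.49 in its first peak, 499 bp wide. The groups from 510384 to 515552 and from 17721191 to 17727165 were weaker, with highest scores of 16.02 (515288 to 515552) and 14.32 (17721191 to 17721407).

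Counts of wide and of high-scoring peaks in large groups were small, and differences between the classes were not tested. None of the 52 peaks in groups of 6 or more was wider than 1000 bp. Counting each peak singly, the upper limit is 5.77% by the limit of 3 counts and 6.85% by the exact interval. The 52 peaks come from only 7 groups and are not independent, so these limits are too tight and decide nothing. Of the 186 single peaks 14 (7.53%) were wider than 1000 bp, and of all X peaks 5.82%. Among the 50 highest scores of X (10.0% of its peaks) were 2 of the 52 (3.85%) and 20 of the 186 (10.8%). Scores on the repeated steps described below made up 63.5% in large groups and 83.3 to 83.6% in the other classes. The large groups differed among themselves, from 5 of 12 peaks in the largest to all 6 in those from 5793262 and from 17721191. The median score was 12.3 in large groups, 12.46 in single peaks and 11.92 in both pairs and groups of 3 to 5. The median width was 349 bp in large groups and 345.5 bp in single peaks, and it was highest, at 416.5 bp, in groups of 3 to 5. The highest score in any large group was 27.72, whereas single peaks reached 82.61.

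The median X peak was 363.5 bp wide (quartiles 249 and 537 bp), between extremes of 201 and 3128 bp. At the narrow end, 48 peaks were at most 210 bp wide, of which 19 had the minimum width. At the broad end, 29 peaks (5.82%, exact interval 3.93 to 8.26%) were wider than 1000 bp. These 29 made up 18.2% of the covered length of X. They were found in every block of 7 bins, 13 in the first 7 bins, 6 in the middle and 9 in the last, with 1 beyond the full bins.

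The widest peak, at 9578024 to 9581151, was 3128 bp wide and also had the highest score of X, 82.61. It stood alone, with 25125 bp to the previous peak and 52983 bp to the next. The second, at 6989638 to 6992092, was 2455 bp wide, scored 28.62 and likewise had no other peak within 10 kb. Both of the X peaks wider than 2000 bp were thus single sites.

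The third widest, at 415973 to 417798 (1826 bp), scored 68.56 and headed a group of 4. A peak of 1802 bp at 6892942 to 6894743 and one of 1724 bp at 2029200 to 2030923 both scored 22.01, the latter flanked by peaks 295 and 324 bp away. The peak at 9028042 to 9029715 was 1674 bp wide with a score of 41.78. Those at 17400219 to 17401837 (1619 bp, score 34.22) and 21221057 to 21222654 (1598 bp, score 29.76) were single sites. The list of 10 closed with 16316933 to 16318507 (1575 bp, score 29.22) and 17632612 to 17634003 (1392 bp, score 16.45), each in a group of 4. The last of these ranked 113 by score. The lowest score among the 29 peaks wider than 1000 bp, 11.92 at 8331241 to 8332296 (1056 bp), lay below the X median, a peak singled out after the values were seen.

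Some X peaks lay so close together that they can also be counted as joint regions. The list holds no signal between peaks, so it cannot tell a broad region in pieces from separate neighbouring sites. Merging X peaks with gaps of up to 500 bp left 400 regions, of which 78 were made of several peaks and none of more than 4. Regions wider than 1000 bp then numbered 71, against 29 peaks before merging. The widest was then 4009 bp, from 2028484 to 2032492, made of 4 peaks that included the 1724-bp peak named above. It was followed by 3635 bp from 11607309 to 11610943, also of 4 peaks and with a highest score of 39.49, and by 3400 bp from 16316933 to 16320332, of 3 peaks. The single 3128-bp peak became the fourth. This merged ranking was looked at after the peak widths had been seen.

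The scores were the authors' own, and their column carries no unit. Among the 498 X peaks only 133 distinct scores occurred, and 27 of these, each seen at least 5 times, accounted for 331 peaks. The most frequent, 8.99, was shared by 24 peaks. Values of this kind arise when a whole number of stacked fragments (the pileup) is compared with a fixed background by a Poisson upper tail. A ladder fitted to the X peaks alone had a background of 35.4 fragments. A score was counted as on a step if it lay within 0.0075 of one, and 81.9% of the 426 X scores up to 20 did. The best background more than 0.5 away placed 31.2% on its steps. The scores were read on this ground as −log10 p-values of the caller.

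**Figure D3:**
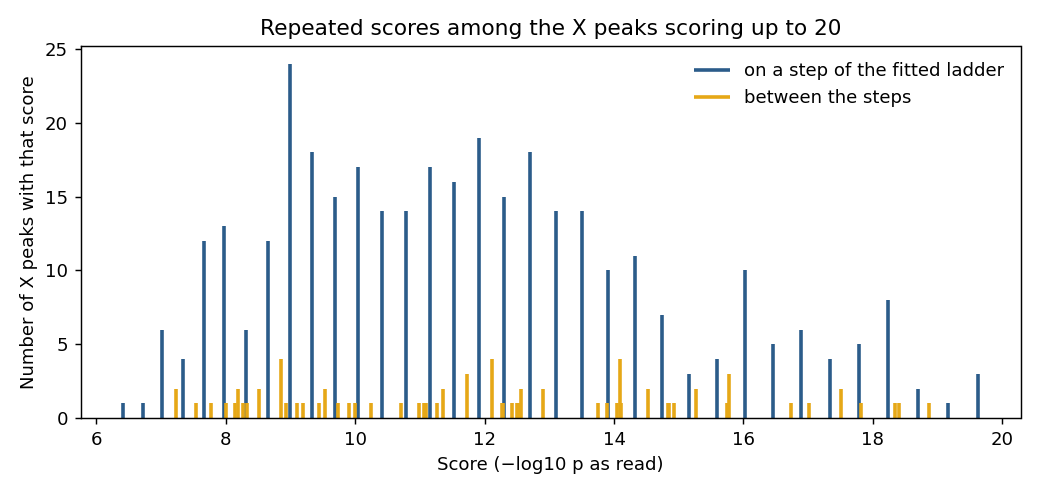
Each line is a distinct score up to 20, with the number of X peaks that share it as height. Blue scores lie on steps of the fitted ladder and orange scores lie between them. The repeated scores are spaced regularly, with the tallest line of 24 peaks at 8.99.

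On this reading the step of a peak gives its pileup, up to a shift of 1 fragment that the values do not settle. The 405 X peaks on a step (81.3% of 498) had pileups between 68 and 183, and the median was 84 (quartiles 78 and 93). These are 1.92, 2.37 and 5.17 times the background at the lowest, the median and the highest peak.

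The other 93 X peaks had scores between the steps, and what the caller compared them with is not known. Their median width was 388 bp and their median score 12.56, against 358 bp and 11.92 for peaks on the steps. They included the 2 highest scores of X. They were most numerous in the bin from 2000001, with 13 of its 35 peaks. The largest group lies in that bin, and 7 of its 12 peaks were among these 13. Why scores in that bin lay between the steps was not tested.

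The 10 highest scores of X were dispersed over 6 bins. After the 82.61 of the widest peak came 73.65 at 5490505 to 5491254, in a peak 750 bp wide with its neighbours 71837 and 75609 bp away. The third was the 68.56 of the third widest peak. A peak at 4833244 to 4834568 (1325 bp) scored 58.08 and was followed by a gap of 141546 bp.

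The fifth and ninth, 54.71 at 9634135 to 9634859 and 41.3 at 9638846 to 9639263, formed a pair 3986 bp apart. They lay 52983 bp beyond the widest peak, and with the eighth, the 41.78 at 9028042 to 9029715, they put 4 of the 10 highest scores into the megabase from 9000001. That bin held 23 peaks, close to the mean, and 4 of the 29 peaks wider than 1000 bp, the most of any bin. Only 13.0% of its peaks lay in groups of 3 or more. One of its 100-kb windows, from 9000001, held 9 peaks, among them the one scoring 41.78.

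The remaining scores were 43.14 at 3674010 to 3674693, at the end of a group of 5, 42.52 at 580384 to 581296, a single peak, and 39.49 at 11607970 to 11608782, in the second widest merged region. The next peak, at 15448255 to 15448727, shared the score of 39.49 and was placed eleventh by position. In all, 22 X peaks exceeded 30 and 72 (14.5%) exceeded 20, while the median was 12.2 (quartiles 9.69 and 15.77).

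Wider X peaks had higher scores. Across peaks Spearman's rho was 0.627 and Pearson's r 0.654 (n = 498 peaks, which are not replicates and whose width and score come from the same pileup). Leaving out the 2 most extreme widths gave r = 0.605. In 4 equal classes by score the median width was 255, 312.5, 381 and 633 bp, and 24 of the 29 peaks wider than 1000 bp fell in the highest class. The association was loose at single sites. The minimum width of 201 bp occurred in all 4 classes, and 3 peaks were in both the 10 highest and the 10 widest.

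**Figure D4:**
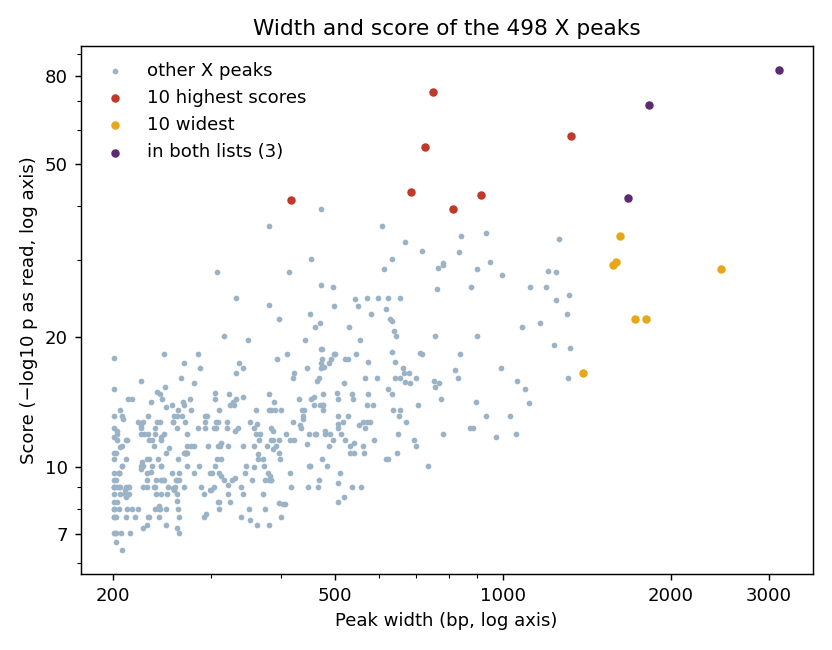
Each point is an X peak, with its width (bp) on a log axis and its score on a log axis. Red points are the 10 highest scores, yellow points the 10 widest peaks and purple points the 3 in both lists. The cloud rises to the right, while red points between 418 and 1325 bp and yellow points down to a score of 16.45 show its breadth.

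Shape measures on X were set beside those of the long autosome arms 2L, 2R, 3L and 3R, without a test. The size of scores was not compared between arms, only the share of them that lay on the ladder fitted to X. Of the X peaks 81.3% had scores on the ladder, against 13.95 to 17.7% on these 4 arms, although a ladder fitted to each of these arms on its own had a background between 35.421 and 35.4275 fragments. The background of X fitted alone was 35.4265. The fits to the 4 arms placed only 14.8 to 17.8% of their scores up to 20 on steps, against 9.84 to 10.9% for the best other background. Where scores lie off the ladder, the value the caller compared with is not known from the list. Read depth on X, which would be lower in a collection that contains males, and binding cannot be told apart in the number of peaks called.

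The median width of X, 363.5 bp, lay within the 359 to 366.5 bp of the 4 arms, and its 5.82% of peaks wider than 1000 bp lay within 5.73 to 7.62%. The upper quartile, 537 bp, and the widest peak, 3128 bp, also lay within the ranges of 535 to 581 bp and 2351 to 3679 bp. The lower quartile and the 90th percentile were lower on X than on each of the 4 arms. The lower quartile was 249 bp against 259 to 264 bp, the 90th percentile was 781 bp against 830 to 861 bp. The share of the narrowest peaks was larger, as 9.64% of X peaks were at most 210 bp wide against 5.79 to 7.60%. With no replicate list, the error of these differences is unknown.

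By fixed distances, X peaks were less grouped, with 36.9% in groups of 3 or more against 49.5 to 52.4% on the 4 arms, and 37.3% single against 26.1 to 27.3%. The gap that joins peaks is a larger part of the mean distance where peaks are many, however. With a gap of 0.25 of each arm's own mean distance (10.9 kb on X, 6.20 to 7.53 kb on the others), a setting chosen after the values were seen, X had 52.2% in groups against 54.7 to 57.3%, and 24.5% single against 21.4 to 23.9%. The ratio of median to mean distance was 0.221 on X and 0.174 to 0.210 elsewhere. X lay outside the range of the 4 arms on each of these measures, and for both shares the distance to the nearest arm was smaller with the scaled gap.

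Among close pairs, the place of X depended on the distance taken. Pairs within 2 kb made up 32.4% of all X pairs, below the 34.4 to 39.1% of the 4 arms. Of pairs up to 5 kb apart, 80.1% were within 2 kb on X, against 69.8 to 80% on the 4 arms. Pairs within 1 kb made up 19.5% of all X pairs, inside the 18.6 to 24.7% of the others, although X peaks were on average farther apart. In units of the arm's mean, the closest pairs of X therefore lie to the left of the other arms in the plot of scaled distances.

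**Figure D5:**
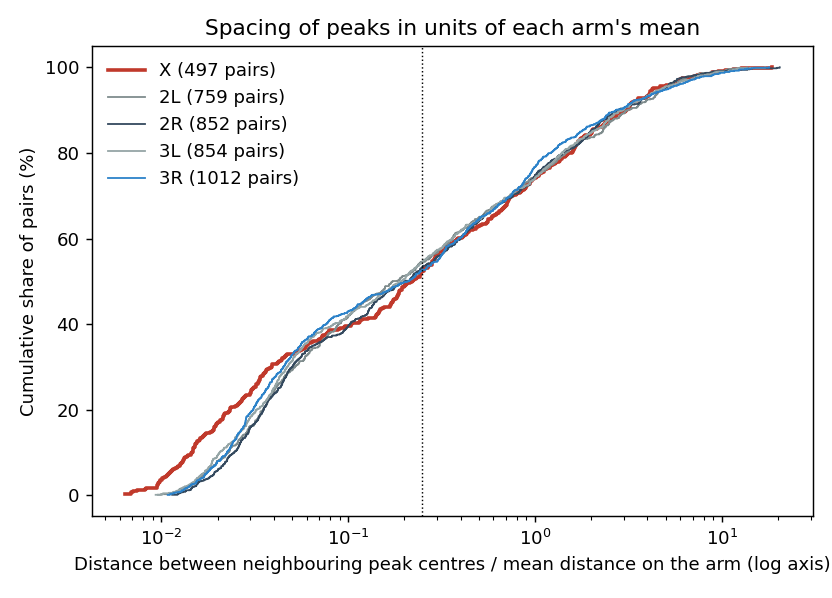
Each curve is the cumulative share of neighbouring peak pairs of an arm by the distance between their centres, divided by the arm's mean distance (log axis). The dotted line marks 0.25 of the mean, which 52.5% of X pairs and 52.6 to 54.5% of pairs on the other arms do not exceed. The red X curve lies above the others at the shortest distances, slightly below them just left of the dotted line and among them beyond it.

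Over megabases, the fullest 6 of the 21 bins held 41.02% of the binned X peaks, within the 36.9 to 43.9% of the 4 arms. The fullest bins counted there were 6 of 22 on 2L, 6 of 21 on 2R, 6 of 23 on 3L and 7 of 27 on 3R. Those of X and 2R were the largest part of their arm's bins, so these shares are not strictly alike. The coefficient of variation of bin counts was 0.379 against 0.315 to 0.470. The variance of bin counts was 3.34 times their mean, below the 3.69 to 7.52 of the other arms. Such a ratio depends in part on how many peaks a bin holds, and X bins held fewer on average. The lower place of X also did not hold in other bins. X had 4.27 against 4.24 to 5.42 in bins of 0.5 Mb and 4.92 against 4.22 to 6.76 in bins shifted by 0.5 Mb. The largest group, 12 peaks, was smaller than those of the 4 arms (14 to 31) with the 5-kb gap, whereas with the scaled gap it held 17 peaks against 14 to 39. The 815-kb stretch was longer than the longest gap of any of them (411 to 506 kb), but at 18.6 times the mean distance it fell within their 13.7 to 20.4 times.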

How the data were processed

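The deposited file used here is the authors' peak list for the series. Per the file headers its coordinates are those of FlyBase release 5 and its source column names MACS. BWA, MACS2, the build BDGP5 and CASAVA (1.7.0.2, 1.7.0.3) are named in the submitters' processing notes. For thresholds, the use of input and any pooling of replicates, the answer is not given in the sources used here. The score column deposited by the authors has no unit and was read as −log10 p from its values.

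Positions were used as deposited, counted from 1, with the midpoint as centre. Peaks were joined by gaps between edges, and bins were full 1-Mb bins by centre. The Poisson background was searched between 5 and 80 on X scores up to 20. Joining and ladder fitting were run on simulated data and recovered the planted groups and background in 10 of 10 sets. All planted gaps lay clear of the 5-kb limit, and the background was searched over a narrower range than on X. The simulation therefore checks the code only, and cannot show that these settings are right for the X peaks. The tools were Python 3.11.15 with scipy 1.17.1, pandas 2.3.3, numpy 2.4.6 and, for figures, matplotlib 3.10.9. Named regions were the 10 highest scores, the 10 widest peaks, groups of 6 or more, the 10 longest gaps, the 3 fullest and 3 emptiest bins and the 5 fullest 100-kb windows. The members, measures and these rules were chosen with earlier results of these data known. The gene table at hand is of release 6 and served only for the symbol of the target, so no peak was assigned to a gene or sequence.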

Additional observations from a re-analysis of the deposited data

How the results depend on the processing

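The 11 results were recomputed under 32 alternatives, of which 14 stayed within the exact interval (shares) or a factor of 1.5 (other values), and 18 moved. Both limits served only as fixed yardsticks and not as tests. Taking only the X peaks above their median score, a smaller list by construction, gave 11.8 peaks per Mb, a median distance of 26516 bp, 17.3% in groups of 3 or more, 57.8% single and 11.2% wider than 1000 bp. Merging within 500 bp gave a median distance of 16993 bp, 19.75% in groups and 17.75% wider than 1000 bp, and merging within 5 kb gave a distance of 36660 bp and a variance to mean ratio of 1.80. The grouped share was 25.5% with a joining gap of 2 kb, 49.4% with 10 kb and 52.2% with 0.25 of the mean distance, the last chosen after the values were seen, and the single share was 44.8%, 25.3% and 24.5%. Shares of grouped and single peaks thus depend on the joining gap by construction. On the ladder lay 57.4% with the tolerance halved, which is finer than the rounding of the scores, and 1.41% with the ladder moved midway between its steps. No paired analysis was possible because each peak has a single score for all libraries, and no replicate could be left out. Sites below the caller's threshold cannot be judged, and depth is unknown.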
